A study of Homo sapiens with 11 samples.

Results

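The genes described are the 10 of the CDK4/6, D cyclin and RB axis in MOLM-13, chosen by symbol from the 38557 annotated genes of the count table: the kinases CDK4 and CDK6, the D cyclins CCND1, CCND2 and CCND3, the inhibitors CDKN2C, CDKN2D and CDKN1B, and the pocket proteins RB1 and RBL2. MOLM-13 is a human acute myeloid leukemia line that carries a rearranged KMT2A gene. All cells were cultured in RPMI with 10% serum and exposed for 72 h to DMSO (4 libraries), to the Menin inhibitor MI-503 at 1 µM (4 libraries), or to 1 µM MI-503 and 100 nM PR-957, which blocks PSMB8 of the immunoproteasome (3 libraries, numbered 1, 2 and 4), called the combination here. No library with PR-957 alone is analysed here, so every effect of PR-957 is one on top of MI-503. One cell line was used, and nothing in the labels states that the replicates are separate cultures, so the p-values measure the spread between these libraries only.

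A D cyclin binds CDK4 or CDK6 and the complex phosphorylates the pocket proteins RB1, RBL1 and RBL2, which then release E2F factors and allow the genes of DNA replication to be transcribed. INK4 inhibitors such as CDKN2C and CDKN2D bind CDK4 and CDK6 directly, whereas CDKN1B binds cyclin and kinase together and holds back CDK2. In KMT2A-rearranged leukemia, CDK6 is known as a direct target of the fusion protein.

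Libraries held 18.9 to 41.2 M counted fragments, and all 10 genes passed the filter on low counts that left 14683 genes for testing. The fewest fragments for any of the 10 in any library were 166, for CCND1. Levels are given as CPM, the counts scaled to a common TMM-adjusted library total, as mean ± SD, and the calls below are those with an adjusted p under 0.05 in edgeR's quasi-likelihood test. Combination replicate 1 stood apart: 36 of 10041 genes lay over 2-fold away from the rest of its group. Replicates 2 and 4 had 4 and 13 such genes, and no library of DMSO or MI-503 had over 1. The chi-square per degree of freedom between the counts of 2 libraries shows this gap and smaller ones. In the combination it was 19.7 and 34.1 for replicate 1 against 2 and 4, and 4.50 for 2 and 4. In DMSO it ran from 2.11 (replicates 1 and 4) to 5.79 (1 and 2). In MI-503 it was 1.71 for replicates 1 and 2, 2.00 for 3 and 4, and 3.40 to 4.55 for the other pairs. The cause of these gaps was not tested. Of the markers of myeloid leukemia, 8 of 8 were expressed, with summed levels of 1591 to 1669 CPM in DMSO, 2019 to 2167 in MI-503 and 2157 to 4426 in the combination. LYZ carried much of that rise, at 95.2 ± 7.76 CPM in DMSO, 376 ± 4.81 in MI-503 and 599, 1812 and 2513 CPM in combination replicates 1, 2 and 4. FLT3, HOXA9 and MEIS1 of the same list fell with MI-503, while the other 5 rose. The T cell and erythroid lists stayed at or under 0.853 and 0.251 CPM in sum. The B cell list summed to 48.8 to 51.5, 33.6 to 34.2 and 24.1 to 27.7 CPM in the 3 groups, most of it PAX5, while MS4A1 was at 0 in all 11 libraries. The epithelial and fibroblast list summed to 38.3 to 45.6, 35.1 to 37.6 and 25.1 to 36.2 CPM. The part of these markers in the changes below was not tested. In bulk RNA, fewer cells of a type and less RNA per cell cannot be told apart.

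At baseline, the DMSO cells held far more CCND3 than other D cyclins and, per length, more CDK4 than CDK6. In RPKM, the CPM per kilobase of exon, CCND3 stood at 103 ± 3.49 (SD, n = 4), CDKN2C at 98.6 ± 4.39 and CDK4 at 94.2 ± 1.51, with overlapping ranges between neighbors in this order. CDK6 (26.2 ± 1.28), RB1 (25.1 ± 1.37), RBL2 (23.7 ± 0.67) and CDKN1B (23.0 ± 0.42) formed a second tier whose neighbors overlapped as well. CDKN2D (11.5 ± 0.30) and CCND2 (11.02 ± 0.79) followed and overlapped, and CCND1 was lowest at 3.19 ± 0.26. These ranks carry a limit from counting, since fragments on exons of more than 1 gene had been left out. CDK4 (hg38 chr12:57747727-57752310, minus strand) shares 57.8% of its exon bases with TSPAN31, and CDKN1B (chr12:12717270-12722383, plus strand) shares 50.1% with GPR19 and LOC105369663. Per unshared exon base, CDK4 came to 223 RPKM and CDKN1B to 46.1 RPKM in DMSO. The other 8 genes share at most 11.3% of their exon bases. The ranks also depend on the exon length, which covers all annotated exons of a gene, 12074 bases for CDK6 and 1865 for CDK4. Without length scaling CDK6 exceeded CDK4 in DMSO, at a ratio of 1.80.

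The promoters were read to see which of these genes carry 1 written form of an E2F site at their start, because E2F factors are what the axis controls. Windows of 300 bases (250 before and 50 after the start, RefSeq, GRCh38.p14) near the annotated gene start were matched for 7 of the 10 genes, without CCND1, CCND2 and RB1. For each gene only the window nearest the outer end of its annotated span was read. Any other start of the same gene, as may lie within the long span of CCND3, was not read. The E2F letters searched were TTTNNCGC on either strand, with any base at N. Such letters were in 1 of these 7 windows (CDKN2D, as TTTCACGC) and in 6.89% of 35116 windows of all genes. They were in 11 of 16 matched windows of a list of 20 E2F target genes. The windows of CDK6 and CDKN2C, whose transcripts fell most after MI-503 alone, are shown with those of CDKN2D and of the pocket protein RBL1 for comparison. Capitals mark the E2F letters, which start 216 bases before the start of CDKN2D and 26 and 16 bases before that of RBL1. The windows are chr7:92836524-92836823 (minus strand), chr1:50968456-50968755 (plus), chr19:10568930-10569229 (minus) and chr20:37095948-37096247 (minus).
CDK6: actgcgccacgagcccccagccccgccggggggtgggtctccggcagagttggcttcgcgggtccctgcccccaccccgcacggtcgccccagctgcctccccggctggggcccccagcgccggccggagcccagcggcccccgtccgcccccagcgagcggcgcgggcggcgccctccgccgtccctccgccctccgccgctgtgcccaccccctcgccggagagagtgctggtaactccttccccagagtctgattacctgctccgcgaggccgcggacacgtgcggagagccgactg
CDKN2C: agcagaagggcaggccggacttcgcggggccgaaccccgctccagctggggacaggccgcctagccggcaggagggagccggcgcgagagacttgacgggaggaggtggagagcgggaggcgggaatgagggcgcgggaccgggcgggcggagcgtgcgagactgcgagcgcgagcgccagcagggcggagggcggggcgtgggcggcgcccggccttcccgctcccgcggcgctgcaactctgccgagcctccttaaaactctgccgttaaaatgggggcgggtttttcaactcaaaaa
CDKN2D: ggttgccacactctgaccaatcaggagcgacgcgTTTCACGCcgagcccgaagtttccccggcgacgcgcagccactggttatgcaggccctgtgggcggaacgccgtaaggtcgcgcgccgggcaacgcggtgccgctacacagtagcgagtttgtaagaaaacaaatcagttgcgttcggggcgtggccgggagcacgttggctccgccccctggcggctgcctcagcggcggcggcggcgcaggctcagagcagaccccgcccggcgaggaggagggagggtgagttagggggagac
RBL1: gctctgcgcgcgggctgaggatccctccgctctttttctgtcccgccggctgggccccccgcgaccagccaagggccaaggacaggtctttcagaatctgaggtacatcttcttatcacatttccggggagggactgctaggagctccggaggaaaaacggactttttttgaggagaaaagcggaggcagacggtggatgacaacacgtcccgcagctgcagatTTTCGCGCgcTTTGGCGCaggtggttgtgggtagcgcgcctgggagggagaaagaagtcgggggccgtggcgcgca
Other spellings of an E2F site were not searched. The CDK6 and CDKN2C windows hold no match to TTTNNCGC. They hold the GC box letters GGGCGG 3 and 6 times, counted on both strands, which 45.0% of all windows hold at least once. A match is a description of the letters only.

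**Figure D1:**
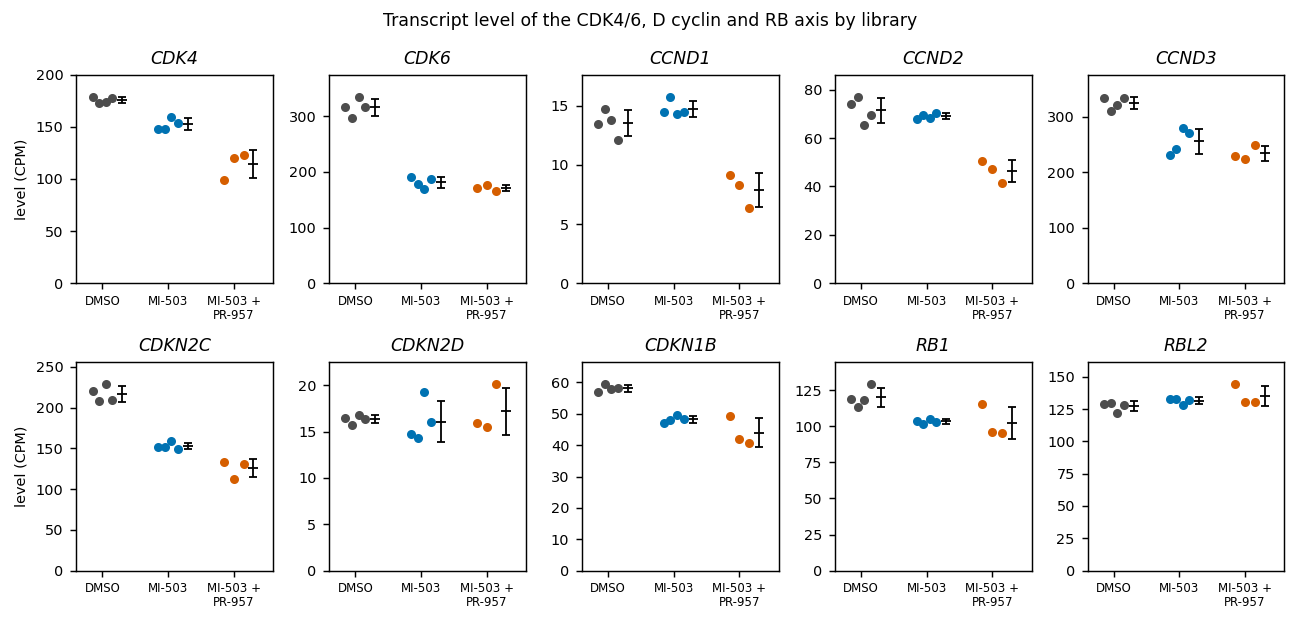
Level of each gene (CPM, vertical axis from 0) in every library of DMSO, MI-503 and the combination (points, in replicate order), with the mean and SD beside the points. CDK6 drops between DMSO and MI-503 and stays there in the combination, while CCND1 and CCND2 are lower in the combination than in either other group.

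The MI-503 libraries were set against those of DMSO to see how the axis responds to Menin inhibition alone. Of the 10 genes, 6 fell and 0 rose: CDK4, CDK6, CCND3, CDKN2C, CDKN1B and RB1. Among all tested genes 29.3% were called lower and 22.0% higher. The median log2 fold change of the 10 was −0.21, against −0.03 over all tested genes. The libraries of both groups did not overlap for these 6 genes, and did not overlap for 50.3% of all tested genes.

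CDK6 (chr7:92604921-92836627, minus strand) fell most. Its level was 316, 297, 334 and 316 CPM in DMSO and 191, 177, 169.7 and 187 CPM in MI-503, so the highest MI-503 library lay far under the lowest DMSO library. The change was −0.80 on the log2 scale (SE 0.05, edgeR adjusted p = 7.4e-10), or 42.6% lower, and 8.99% of all tested genes changed by more in size. CDK6-AS1, a noncoding gene on the other strand that shares 0.671% of the CDK6 exon bases with it and was added after its values were seen, went from 2.598 ± 0.21 to 0.485 ± 0.15 CPM (log2 −2.38, SE 0.21, edgeR adjusted p = 9.5e-08). The counting took no account of strand, but left out fragments on exons of both genes, so the counted CDK6 fragments lie outside the shared bases. Whether other RNA from the opposite strand adds to the CDK6 count was not tested.

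CDK4, the other kinase, read 179, 173, 174 and 178 CPM in DMSO and 148, 148, 159.7 and 154 CPM in MI-503. Its fall was smaller, by 0.21 on the log2 scale (SE 0.06, edgeR adjusted p = 0.0052), and 55.8% of all tested genes changed by more. TSPAN31, which overlaps CDK4, moved the other way, from 20.1 ± 1.02 to 22.5 ± 0.89 CPM (log2 0.17, edgeR adjusted p = 0.038).

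The D cyclins differed among themselves. CCND3 (chr6:41934933-42048894, minus strand) read 333, 310.0, 322 and 333 CPM in DMSO and 232, 242, 279 and 271 CPM in MI-503, a fall of 0.34 (SE 0.06, edgeR adjusted p = 7.8e-05). CCND1 (chr11:69641156-69654474, plus strand) read 13.4, 14.7, 13.8 and 12.1 CPM against 14.4, 15.8, 14.3 and 14.5 CPM. Its groups overlapped and its difference of 0.13 was not called (95% interval −0.07 to 0.33, edgeR adjusted p = 0.28). CCND2 (chr12:4273762-4305353, plus strand), at 74.2, 77.0, 65.3 and 69.7 CPM against 67.9, 69.7, 68.1 and 70.3 CPM, was not called either (log2 −0.05, interval −0.18 to 0.07, edgeR adjusted p = 0.49).

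Of the inhibitors, CDKN2C (chr1:50968695-50974634, plus strand) fell from 221, 208, 229 and 209.9 CPM to 151, 151, 158 and 149.5 CPM, by 0.51 (SE 0.05, edgeR adjusted p = 3.5e-07). CDKN1B fell by 0.27 (SE 0.05, edgeR adjusted p = 5.6e-04), from 56.8 to 59.5 CPM over the DMSO libraries to 47.0 to 49.7 CPM in MI-503. CDKN2D (chr19:10566460-10568979, minus strand) stayed near its DMSO level, at 16.4 ± 0.43 and 16.1 ± 2.23 CPM (log2 −0.03, interval −0.23 to 0.18, edgeR adjusted p = 0.84). Both inhibitors that were called thus moved down, as the kinases did.

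Of the pocket proteins, RB1 (chr13:48303747-48481890, plus strand) fell from 119, 114, 118 and 129 CPM to 104, 101, 105 and 103 CPM, by 0.22 (SE 0.06, edgeR adjusted p = 0.0043). RBL2 (chr16:53434471-53491648, plus strand) read 129, 129.6, 122 and 128 CPM against 133, 133, 128 and 132 CPM and was not called (log2 0.05, interval −0.04 to 0.14, edgeR adjusted p = 0.36).

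The combination was then set against MI-503, to see what PR-957 adds to MI-503 in cells exposed to both for 72 h. This comparison is called the added step, and MI-503 against DMSO the first step. These names stand for comparisons, not for an order of treatment. Of the 10 genes, 4 fell in this step and 0 rose: CCND1, CCND2, CDK4 and CDKN2C. Among all tested genes 23.8% were called lower and 23.6% higher, and the groups did not overlap for 4 of the 10 genes and for 47.6% of all tested genes. The median log2 fold change of the 10 was −0.13, against 0.00 over all tested genes.

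CCND1 fell most in this step, to 9.11, 8.33 and 6.32 CPM in the combination. Each library lay under the lowest MI-503 library, and the change was −0.89 (SE 0.11, edgeR adjusted p = 4.2e-06), which 6.10% of all tested genes exceeded in size. CCND2 fell to 50.5, 47.3 and 41.3 CPM, by 0.57 (SE 0.07, edgeR adjusted p = 2.5e-06). CCND3, at 228, 224 and 249 CPM, overlapped its MI-503 libraries and was not called (log2 −0.13, interval −0.26 to −0.0013, edgeR adjusted p = 0.090).

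CDK4 fell to 99.0, 120.2 and 123 CPM, by 0.42 (SE 0.06, edgeR adjusted p = 2.8e-05), with replicate 1 the lowest. CDK6, at 171, 177 and 165 CPM, overlapped its MI-503 libraries, and its difference of −0.08 was not called (interval −0.19 to 0.02, edgeR adjusted p = 0.19). CDKN2C fell to 133, 113 and 130.3 CPM, by 0.28 (SE 0.05, edgeR adjusted p = 4.9e-04). CDK4 and CDKN2C were called in both steps, CDK6, CCND3, CDKN1B and RB1 only in the first, and CCND1 and CCND2 only in the added step.

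The remaining genes were not called in the added step. CDKN1B read 49.2, 41.9 and 40.6 CPM (log2 −0.13, edgeR adjusted p = 0.085) and RB1 115, 96.4 and 95.2 CPM (log2 −0.01, interval −0.14 to 0.12, edgeR adjusted p = 0.89). In both, replicate 1 was the highest. Without combination replicate 1, 6 of the 10 genes were called lower, with CDKN1B at −0.25 (edgeR adjusted p = 2.1e-04) and RB1 at −0.14 (edgeR adjusted p = 0.021), and CCND1 stood at −1.06 and CCND2 at −0.67. CCND3 was called without MI-503 replicate 1 (log2 −0.17, edgeR adjusted p = 0.025) and without combination replicate 4 (log2 −0.22, edgeR adjusted p = 0.0097). CDKN2D, at 15.96, 15.6 and 20.1 CPM, differed by 0.10 (interval −0.11 to 0.32, edgeR adjusted p = 0.44) and RBL2, at 144, 131 and 131 CPM, by 0.04 (interval −0.05 to 0.14, edgeR adjusted p = 0.48).

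**Figure D2:**
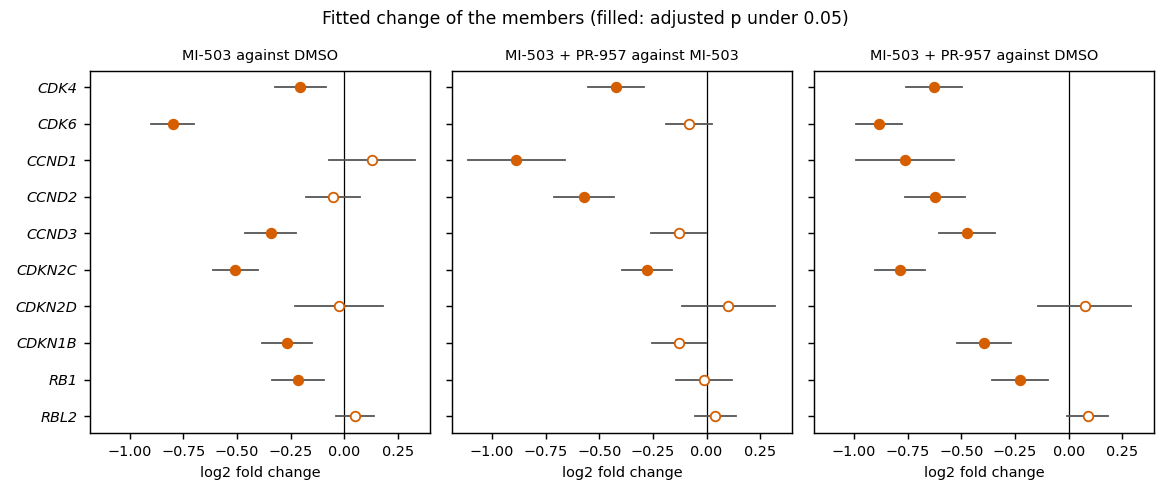
Fitted log2 fold change of the 10 genes (points) with 95% intervals (lines) for MI-503 against DMSO, the combination against MI-503 and the combination against DMSO, filled where the adjusted p is under 0.05. CDK6 is at −0.80, −0.08 and −0.88, and CCND1 at 0.13, −0.89 and −0.76.

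Whether a gene answered the added step differently from the first was tested in the same model, as the combination-to-MI-503 change minus the MI-503-to-DMSO change. This contrast was added after the values had been seen, and both parts of it use the MI-503 libraries. It was called for 3 of the 10 genes and for 35.2% of all tested genes. CDK6 had the larger fall in the first step, with a difference of 0.72 (SE 0.08, edgeR adjusted p = 6.0e-06). CCND1 (−1.01, SE 0.17, edgeR adjusted p = 2.1e-04) and CCND2 (−0.52, SE 0.11, edgeR adjusted p = 0.0011) had the larger fall in the second. CDK4 was not called (−0.22, edgeR adjusted p = 0.10) but was under 5 of 18 alternatives, among them without any 1 of the 3 combination libraries (−0.19 to −0.35). CDKN2C was at 0.23 (edgeR adjusted p = 0.059) and CCND3 at 0.21 (edgeR adjusted p = 0.11), and they were called under 3 and 2 of the 18 alternatives. CDKN2C was called without DMSO replicate 2 (0.25) and without combination replicate 2 (0.22), CCND3 without MI-503 replicate 3 (0.30), and both with the replicate number as a block (0.24 each).

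The combination was compared with DMSO for the sum of both steps. Of the 10 genes, 8 fell and 0 rose, beside 32.8% of all tested genes called lower and 31.7% higher. The groups did not overlap for 8 of the 10 genes and for 60.5% of all tested genes. The median of the 10 was −0.55, against 0.01 over all tested genes. This comparison shares its libraries with both of the others.

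CDK6 was 45.8% lower than in DMSO (log2 −0.88, SE 0.05, edgeR adjusted p = 2.1e-10), CDKN2C 42.1% lower (−0.79, SE 0.06, edgeR adjusted p = 1.9e-09) and CCND1 41.0% lower (−0.76, SE 0.11, edgeR adjusted p = 9.1e-06). CDK4 (−0.63, edgeR adjusted p = 1.1e-07) and CCND2 (−0.62, edgeR adjusted p = 2.7e-07) followed at 35.3% and 35.1% lower. CCND3 changed by −0.47 (edgeR adjusted p = 3.2e-06) and CDKN1B by −0.40 (edgeR adjusted p = 1.5e-05). RB1 changed by −0.23 (edgeR adjusted p = 0.0038), and its groups overlapped through combination replicate 1. CDKN2D (0.07, interval −0.14 to 0.29, edgeR adjusted p = 0.55) and RBL2 (0.09, interval −0.01 to 0.18, edgeR adjusted p = 0.095) were not called, though each combination library held more RBL2 than the highest DMSO library. Without combination replicate 1 the count stayed at 8 lower.

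The balance between paired genes is a description of levels per length, without a test. The ratio of CDK6 to CDK4 averaged 0.278 ± 0.014 over the 4 DMSO libraries (SD), 0.184 ± 0.015 over the 4 of MI-503 and 0.234 ± 0.030 over the 3 of the combination. MI-503 libraries, at 0.164 to 0.199, lay under those of both other groups, and the combination, at 0.208 to 0.267, overlapped DMSO (0.265 to 0.297) in replicate 1. Per unshared exon base the ratio was 0.118, 0.0782 and 0.0994, in the same order. CDK4 and CDK6 together came to 120.4 ± 2.13 RPKM in DMSO, 96.7 ± 2.55 in MI-503 and 75.4 ± 7.03 in the combination.

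The D cyclins together came to 117 ± 3.11, 95.03 ± 7.11 and 82.9 ± 3.42 RPKM. CCND3 made up 87.8% ± 0.96 of that sum in DMSO, 85.1% ± 1.18 in MI-503 and 89.1% ± 1.62 in the combination. CCND2 made up 9.43%, 11.2% and 8.64%, and CCND1 2.74%, 3.68% and 2.27%. The share of CCND1 in MI-503 (3.30% to 4.08%) lay above both other groups (at most 3.07% and 2.62%). The ratio of CDKN2C to CDKN2D went from 8.59 ± 0.23 to 6.22 ± 0.68 and 4.77 ± 0.61, and that of RBL2 to RB1 from 0.946 ± 0.057 to 1.13 ± 0.037 and 1.18 ± 0.059.

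**Figure D3:**
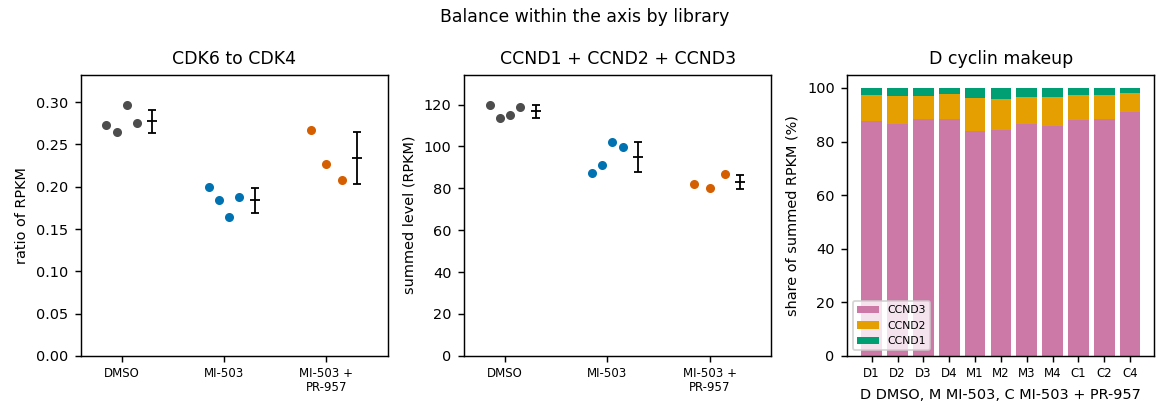
Left, ratio of CDK6 to CDK4 (RPKM over RPKM) per library with mean and SD. Middle, summed RPKM of the 3 D cyclins. Right, share of each D cyclin in that sum (%) per library, with D for DMSO, M for MI-503 and C for the combination. The ratio is lowest in MI-503 and CCND3 makes up over 84% of the sum in every library.

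Other genes of the pathway were counted from lists chosen by role. The counts are to be read beside the shares of all tested genes called lower and higher, 29.3% and 22.0% with MI-503, 23.8% and 23.6% in the added step, and 32.8% and 31.7% in the combination against DMSO. RBL1, the pocket protein outside the 10, read 58.2 ± 4.55 CPM in DMSO, 46.4 ± 2.51 in MI-503 and 31.1 ± 2.29 in the combination. It fell by 0.33 in the first step (SE 0.06, edgeR adjusted p = 2.6e-04) and by 0.58 in the added step (SE 0.07, edgeR adjusted p = 3.6e-06), whereas RBL2 was called in neither. Of the 10 tested E2F, DP and RBL1 genes, 9 fell and 0 rose with MI-503 (median −0.32), 5 fell and 2 rose with PR-957 on top (median −0.33), and 8 fell and 1 rose in the combination against DMSO (median −0.78). The share that rose in the added step was thus near that of all tested genes. The risers were E2F6, a repressor of the family (0.41 in the added step, edgeR adjusted p = 3.0e-05), and in the added step also the DP protein TFDP2 (0.47, edgeR adjusted p = 3.2e-04).

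E2F1, an activator of the family, fell from 60.9 ± 3.28 to 45.5 ± 4.36 CPM (log2 −0.42, edgeR adjusted p = 0.0011) and then to 33.7 ± 6.63 CPM (log2 −0.45, edgeR adjusted p = 0.0019). The smallest adjusted p in the first step belonged to E2F5 (−1.19), E2F7 (−0.35) and RBL1. In the added step it was TFDP1, the main partner of the E2F proteins (−0.51), E2F8 (−0.94) and RBL1, and for the combination against DMSO TFDP1 (−0.69), E2F7 (−0.91) and RBL1 (−0.90). Of the E2F target genes, 20 of 20 fell with MI-503 (median −0.38, −0.66 to −0.19), beside 29.3% of all tested genes. With PR-957 on top 18 of 20 fell (median −0.57), beside 23.8%, and in the combination against DMSO 20 of 20 (median −0.91), beside 32.8%. RRM1 (−0.13, edgeR adjusted p = 0.071) and ORC1 (−0.18, edgeR adjusted p = 0.10) were not called in the added step.

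Led by adjusted p, the E2F targets of the first step were RRM1, a ribonucleotide reductase subunit (−0.54), the DNA polymerase subunit POLA1 (−0.43) and the helicase subunit MCM6 (−0.57). Those of the added step were CDCA7 (−0.54), MCM2 (−0.64) and MCM4 (−0.70), and of the combination against DMSO MCM4 (−1.08), POLA1 (−0.87) and CDCA7 (−0.77). The medians over all tested genes in these comparisons were −0.03, 0.00 and 0.01.

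In the module of CDK2 and CDK activators, with 11 tested genes, 7 fell and 1 rose with MI-503, 7 fell and 1 rose in the added step, and 9 fell and 1 rose in the combination against DMSO. Of all tested genes, 29.3%, 23.8% and 32.8% were called lower and 22.0%, 23.6% and 31.7% higher. The riser was in each case CCNA1, an A cyclin of germ cells and myeloid leukemia, which went from 4.32 ± 0.18 to 13.7 ± 1.04 and 19.8 ± 1.63 CPM (log2 1.67, edgeR adjusted p = 2.4e-10, and 0.52, edgeR adjusted p = 4.8e-05). CDK1, the mitotic kinase, fell by 0.46 and 0.60 in the steps, and CDC25A, a phosphatase that activates CDK2, by 0.55 and 0.71. WEE1, which inhibits CDK1, fell by 0.56 in the added step. CCNE1, the E cyclin partner of CDK2, fell from 18.1 ± 0.81 to 13.3 ± 1.57 CPM in the first step (log2 −0.45, edgeR adjusted p = 3.2e-04), and at 12.0 ± 1.21 CPM was not called in the added step (log2 −0.15, edgeR adjusted p = 0.22).

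A list of 10 tested genes covered the turnover of D cyclins, cyclin E and CDKN1B or its control. Of these, 8 fell with MI-503 and 0 rose (median −0.27), beside 29.3% lower and 22.0% higher of all tested genes. They were led by CKS2 (−0.43), CUL1 (−0.48) and CKS1B (−0.35). With PR-957 on top, 4 fell, led by SKP2, the ligase subunit that targets CDKN1B (−0.53), CKS1B (−0.31) and FBXO5 (−0.41), while AMBRA1, the receptor for D cyclin turnover (0.15, edgeR adjusted p = 0.020), and SKP1 (0.22) rose. The median of the list was then −0.06, and 23.8% and 23.6% of all tested genes fell and rose, so the 2 that rose were near the share of all genes. In the combination against DMSO 7 fell and 0 rose, with SKP2 at −0.80, CKS1B at −0.66 and CKS2 at −0.67. These are transcripts, and the level of CDKN1B or D cyclin protein was not measured here.

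The DREAM complex with RBL1 or RBL2 represses cell cycle genes. Its list held LIN9, LIN37, LIN52, LIN54, RBBP4 and the kinase DYRK1A. Of these 6 genes, 3 fell with MI-503 (RBBP4 −0.16, LIN9 −0.31 and LIN54 −0.22). In the added step RBBP4 fell (−0.37), as did LIN9, and LIN37 (0.55) and LIN54 (0.45) rose, and in the combination against DMSO RBBP4 (−0.52) and LIN9 (−0.71) fell and LIN37 rose (0.65), as did LIN54. With 6 genes, 2 falling and 2 rising in the added step are close to the 23.8% and 23.6% of all tested genes. Of the 5 other CDK inhibitors 2 were tested. CDKN1A, the p53-induced inhibitor, read 141 to 149 CPM in DMSO, 101 to 112 CPM in MI-503 and 145 to 171 CPM in the combination, so it fell in the first step (−0.43, edgeR adjusted p = 3.1e-06) and rose in the added step (0.59, edgeR adjusted p = 2.5e-07) and against DMSO (0.16, edgeR adjusted p = 0.018). CDKN3 fell by 0.37 in each step and by 0.75 in the combination against DMSO. CDKN2A, CDKN2B and CDKN1C had at most 4 fragments in any library. The annotation places CDKN1C on 2 contigs and multimapping fragments were not counted, so its count near 0 does not show that it is silent. The same limit holds for CDK7 (9 to 30 fragments), tested in the CDK2 module, and for E2F2 (1 to 5 fragments), which did not pass the filter.

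**Figure D4:**
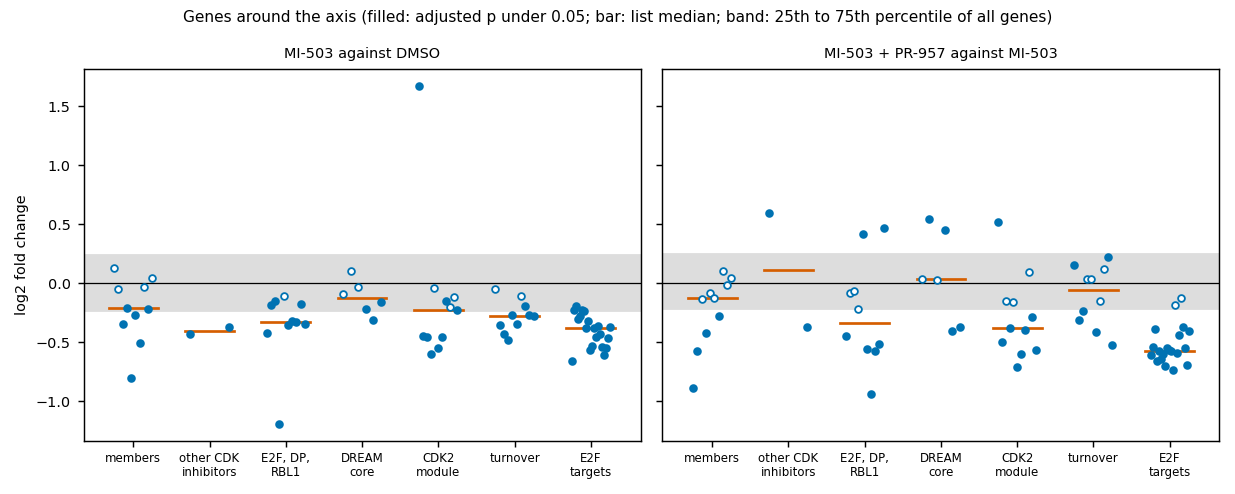
Fitted log2 fold change of each tested gene (points, filled where the adjusted p is under 0.05) by list, for MI-503 against DMSO (left) and the combination against MI-503 (right), with list medians (bars) and the 25th to 75th percentile of all tested genes (band). All 20 E2F target genes lie under 0 in both panels, and the point at 1.67 on the left is CCNA1.

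The genes most like those of the axis across the 11 libraries were sought among 10040 others with a mean of at least 5 CPM, by Pearson's r of log2 CPM. These correlations follow the 3 group means of a shared set of libraries and are given without a p. CDK6 was nearest to MRM3 (r = 0.991), SOCS2-AS1 (0.990) and SP9 (0.990), and CDK4 to UNG, a DNA repair glycosylase (0.996). CCND1 was nearest to LRP5, a Wnt co-receptor (0.990), CCND2 to PAFAH1B3 (0.981), CCND3 to EIPR1 (0.988) and CDKN2C to NKRF (0.993). RB1 (ANK2, 0.959), RBL2 (PPIP5K2, 0.936) and CDKN2D (CXorf40B, 0.835) had looser neighbors.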

How the data were processed

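Total RNA of MOLM-13 cells had been made into TruSeq libraries from polyadenylated RNA and sequenced as read pairs. The values used are raw counts of fragments per gene that the authors deposited, 1 set per library. Per the submitters' processing notes and the file headers, they come from Trimmomatic 0.39, STAR 2.7.10a and featureCounts 2.0.1 on RefSeq exons of hg38, without strand, and multimapping fragments or fragments on several genes were left out. This lowers CDK4 and CDKN1B. The sources used here do not give how the alignments were filtered. The authors' differential expression tables (log2 fold changes and p-values) were not used.

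Counts of all 11 libraries entered 1 edgeR 4.0.16 model (R 4.3.3) with a mean per group, TMM factors (0.956 to 1.056) and filterByExpr (minimum count 10, minimum total 15). Its quasi-likelihood test was two-sided, with Benjamini-Hochberg adjustment over 14683 genes. RPKM divide CPM by exon length. Settings were tested on simulated data. Alternatives used limma 3.58.1 and DESeq2 1.42.0, other scalings and filters, a replicate block and each library left out. Every gene of the axis is named in each comparison, and of each other list the 3 called genes with the smallest adjusted p. The gene most like CDKN1B is not reported here. The genes and lists were chosen with earlier results of these data known. Totals of 18.9 to 41.2 M fragments and 3 or 4 libraries a group limit the precision.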

Additional observations from a re-analysis of the deposited data

Results flagged for a closer look

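Each gene of the axis was screened for a library far from its group in the 20 sets of 4 libraries. In MI-503, CCND1 stood at 15.8 CPM in replicate 2, above 14.3 to 14.5 CPM in the other 3, with a gap of 0.887 of the group's range. In DMSO, RBL2 stood at 121.9 CPM in replicate 3, under 128 to 129.6 CPM in the others, with a gap of 0.842 of the range. Chance flags about 1 in 20 such sets, where 2 were seen here. The cause was not tested. The combination, with 3 libraries, was not screened.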

How the results depend on the processing

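Each call of the 10 genes that the report gives held its direction and its threshold under the 19 alternatives of each comparison of groups and the 18 of the added step against the first. Of all values of the 10 genes under these alternatives, 711 kept both, 21 newly passed the threshold and 18, from uncalled results, changed sign without being called.

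Under upper-quartile factors the median over all genes shifted from −0.03 to 0.03 in MI-503 against DMSO, from 0.01 to 0.08 in the combination against DMSO and from 0.00 to 0.01 in the added step. They raised the share of higher among called genes from 42.9% to 54.2% in the first. With them 1 gene of the axis was called higher in each comparison with DMSO (RBL2, 0.11 and 0.16), 1 turnover gene was called higher in the combination against DMSO, and in MI-503 against DMSO CCND2 came to 0.0094 and CDKN2D to 0.034. The stricter filter gave 1 higher gene in the combination against DMSO (RBL2, 0.12) and CDKN2D at 0.023. With DMSO and MI-503 alone in the fit, 2 genes were called higher (CCND1, 0.18, and RBL2, 0.10) and CDKN2D was at 0.018. RLE factors also called CDKN1B lower in the added step (−0.15).

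Leaving out each library gave 0 to 1 genes called higher in MI-503 against DMSO, where RBL2 was called without combination replicate 1, and 1 turnover gene higher in the combination against DMSO without that replicate. CDKN2D ranged from −0.12 to 0.031 in MI-503 against DMSO, from −0.053 to 0.16 in the combination against DMSO and from −0.062 to 0.20 in the added step. In the added step RB1 ranged from −0.14 to 0.0012 and RBL2 from −0.036 to 0.047. The added step minus the first called 1 to 2 genes higher, with CDKN2D at −0.071 to 0.32, CDKN1B at −0.030 to 0.17 and RBL2 at −0.13 to 0.014.

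The labels do not state that libraries of like number belong together, though the combination is numbered 1, 2 and 4, with a number skipped. Deviations from the group means correlated at −0.25 to 0.28 over the 10 pairs of like number (median 0.126, 6 over 0.1) and at −0.31 to 0.32 over the 30 of unlike number (median −0.074, 9 over 0.1). The 3 pairs of number 2 were all over 0.1 (0.11 to 0.28). Pairs of like number thus had the higher median, and these values do not settle whether the numbers pair the libraries. The main fit has no block. A replicate block gave 0 higher and 6, 8 and 4 lower genes of the axis in the 3 comparisons, as without it, and 3 higher genes (CDK6, CCND3 and CDKN2C) in the added step minus the first.

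Without length scaling the CDK6 to CDK4 ratio was 1.80, 1.19 and 1.52 in DMSO, MI-503 and the combination, and per unshared exon base 0.118, 0.0782 and 0.0994. From raw counts CCND1 made up 3.31%, 4.36% and 2.76% of the D cyclins, CCND2 17.5%, 20.4% and 16.1%, and CCND3 79.2%, 75.3% and 81.1%. The contrast of the steps and the unshared bases were chosen after seeing the data. The cause of these differences was not tested.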
